A study of Homo sapiens with 14 samples.

Results

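The keratins described here were 10 genes of 3 classes, namely the basal keratins KRT5, KRT14 and KRT15, the stress keratins KRT6A, KRT6B, KRT16 and KRT17, and the simple epithelial keratins KRT8, KRT18 and KRT19. They were chosen by name for their class, with earlier results of these data known. All 10 were found among the 59471 gene names of the count files. Keratins form the intermediate filaments of epithelial cells, and a filament is built from pairs of a type I and a type II keratin. In stratified squamous epithelium, the tissue from which head and neck squamous cell carcinoma (HNSCC) arises, KRT5 pairs with KRT14 in the basal layer, KRT6 pairs with KRT16 or KRT17 after injury and in hyperproliferation, and KRT8 pairs with KRT18 mainly in simple, single-layered epithelia and in many carcinomas. KRT15 is a further type I keratin of basal cells, and KRT19 is a short type I keratin found in simple and in some basal cells.

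RNA-seq counts of 14 libraries of SCC23, an established HNSCC cell line, were analysed. KMT2D-WT cells had received a CRISPR/Cas9 plasmid with a guide against LacZ, while lines KO1 and KO2 (KMT2D-KO) had received the same plasmid with a guide against KMT2D, a histone H3K4 methyltransferase. Both were sorted for GFP, and no cloning of single cells is described. Cells were kept in high glucose DMEM (+Glc) or deprived of glucose for 6 h, a condition that the labels call low glucose (-Glc). KMT2D-WT cells gave 3 libraries and KMT2D-KO cells 4 in each condition, over 2 experiments, with 1 KO1 and 1 KO2 library per experiment and condition. The comparison of the genotypes asks which genes depend on KMT2D, and that of the conditions how cells with and without it respond to loss of glucose.

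Of the 6 type I members, all but KRT18 lie on chromosome 17 of GRCh38, and KRT18 lies with the 4 type II members on chromosome 12. KRT14 (chr17:41582279-41586895), KRT16 (chr17:41609778-41615899) and KRT17 (chr17:41619442-41624842), all on the minus strand, fall within 42.564 kb, and KRT15 (chr17:41513745-41522529) and KRT19 (chr17:41523617-41528308) within 14.564 kb. KRT6B (chr12:52446651-52452146), KRT6A (chr12:52487176-52493257) and KRT5 (chr12:52514575-52520530), also on the minus strand, fall within 73.88 kb. KRT8 (chr12:52897187-52949954, minus strand) and KRT18 (chr12:52948871-52952906, plus strand) share 525 exonic bases, 7.63% of the exonic length of KRT8 and 17.1% of that of KRT18. Because reads were counted without strand, reads in this stretch cannot be told apart between both genes.

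Some of these genes are close copies of each other, which matters for counts of short reads. The following 90 bases of the first coding exon of KRT14, KRT16 and KRT17, read from GRCh38 on the minus strand, are shown because few bases separate a basal keratin from its stress counterparts here. Capitals mark bases that differ from KRT14.
KRT14 (chr17:41586367-41586456): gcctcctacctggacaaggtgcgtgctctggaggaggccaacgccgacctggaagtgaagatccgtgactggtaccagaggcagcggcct
KRT16 (chr17:41612215-41612304): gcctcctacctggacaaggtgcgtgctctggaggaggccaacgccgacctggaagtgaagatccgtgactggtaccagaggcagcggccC
KRT17 (chr17:41624135-41624224): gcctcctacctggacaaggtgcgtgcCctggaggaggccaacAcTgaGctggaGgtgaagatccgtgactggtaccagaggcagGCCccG

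KRT16 differed from KRT14 at 1 of these 90 bases and KRT17 at 9. The window was picked for its high identity, as the 90 bases with the fewest differences in which all 3 genes differ. The matching window of the type II stress keratins and KRT5 follows, with capitals where a base differs from KRT6A, where KRT6B differed at 1 base and KRT5 at 7.
KRT6A (chr12:52492742-52492831): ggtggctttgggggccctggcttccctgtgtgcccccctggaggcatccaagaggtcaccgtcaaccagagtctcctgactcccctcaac
KRT6B (chr12:52451632-52451721): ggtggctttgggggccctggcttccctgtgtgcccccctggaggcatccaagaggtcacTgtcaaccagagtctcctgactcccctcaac
KRT5 (chr12:52519835-52519924): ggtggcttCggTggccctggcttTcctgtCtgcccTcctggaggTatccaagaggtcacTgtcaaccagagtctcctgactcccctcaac

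Over all exons, 18.4% of the 50-base stretches of KRT14 also occurred in the exons of another keratin gene or pseudogene, most often KRT16 (8.21%). The share was 16.2% for KRT16, with the pseudogene KRT16P3 as its main partner, and 9.14% for KRT17. It was 32% for KRT6A and 44.3% for KRT6B, mostly shared with KRT6C. KRT5 (2.41%), KRT19 (0.28%) and KRT15 (0%) were nearly unique, and KRT18 (11.2%) and KRT8 (6.95%) shared stretches with 25 and 30 other keratin rows. Of the summed counts of KRT16 and its 6 pseudogene rows, the pseudogenes took 21.3% to 81.1% in the 10 single-end libraries and 58.5% to 86.5% in the 4 libraries in which both mates were counted, most of it on KRT16P6. Whether reads of KRT16 were counted on these rows was not tested, so KRT16 counts are uncertain. For KRT8 and KRT18 the share was 0.66% to 1.1% and 0.28% to 0.41% in the libraries with both mates and 4.54% to 5.57% and 6.85% to 16.7% in the others, and it stayed under 1% for KRT17 and KRT19.

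Several facts of the libraries bear on every value below. Each library held between 15669154 and 62968057 counts, and the 4 libraries of experiment 2 with glucose were counted with both mates of each pair, so in experiment 2 the glucose condition and the way of counting cannot be told apart. In experiment 2 without glucose, the 2 KMT2D-WT libraries differed from each other by a chi-square of only 1.65 per gene and the 2 KMT2D-KO libraries, labelled KO1 and KO2, by 1.71, against 23 to 72.7 for the other pairs. At 34 other genes that differed at least 8-fold between the lines with glucose, both of these KMT2D-KO libraries lay near the KO2 library of experiment 1 without glucose (mean distances of 0.37 and 0.38 on the log2 scale) and far from the KO1 library (2.68 and 2.7). The library labelled KO1 in experiment 2 without glucose thus went against its label, and comparisons of the genotypes without glucose are given with and without this pair. With the pair, KMT2D-KO cells without glucose held more libraries near KO2 than those with glucose. Line and glucose condition therefore cannot be fully told apart in fits across conditions that include it. KMT2D itself was at 265 to 279 CPM (counts scaled to library size after TMM normalisation) in KMT2D-WT cells with glucose, 182 and 184 CPM in KO1 and 322 and 373 CPM in KO2. Without glucose it was at 230 to 239 CPM in KMT2D-WT cells, and at 19.9 CPM (KO1) and 190 CPM (KO2) in experiment 1 and 152 and 145 CPM in experiment 2. Counts over the whole gene do not show whether the protein was lost. For KMT2D-KO SCC23 cells the study reported KMT2D mutations by sequencing, knockout by western blot, and lower H3K4me1. Of 17 squamous epithelial markers, 16 had a median of at least 1 CPM, and their sum was 6555 to 8572 CPM per library. The sum of 8 fibroblast markers was 5.87 to 7.12 CPM in KMT2D-WT and 12.5 to 26.9 CPM in KMT2D-KO cells with glucose, and 3.26 to 5.62 and 7.36 to 14 CPM without, and those of 6 immune and 5 endothelial markers did not exceed 1.31 and 4.26 CPM. The part of these markers in the results was not tested.

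Simple epithelial keratins carried most of the keratin RNA in every library. Compared per length, as RPKM (CPM per kilobase of exon), the median levels in KMT2D-WT cells with glucose were 386 for KRT8, 303 for KRT18, 98.5 for KRT14, 67.6 for KRT19, 27.1 for KRT17, 5.11 for KRT5, 0.85 for KRT15 and 0.42 for KRT16, with KRT6A (0.02) and KRT6B (0) at the end. The ranges of KRT8 and KRT18 overlapped in this order, as did those of KRT14 and KRT19 and of KRT15 and KRT16. The length used was that of all annotated exons together, from 2255 bases for KRT14 to 6881 for KRT8. A single transcript can be shorter. Order, class shares and the size of ratios between genes depend on this length, while comparisons of the same gene between libraries do not. The squamous line was thus led by the simple pair KRT8 and KRT18, with KRT14 RNA far above that of its partner KRT5. In KMT2D-KO cells without glucose, the medians were 516 for KRT18, 466 for KRT8, 233 for KRT17, 87.6 for KRT19, 77.9 for KRT14, 44.1 for KRT5, 4.53 for KRT16 and 2.49 for KRT15. KRT17 thus stood above KRT19 and KRT14 there and below both in KMT2D-WT cells with glucose, though its range of 122 to 434 RPKM overlapped that of KRT19 (72.4 to 180).

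By class, simple keratins held 66.6% to 97% of the summed RPKM of the 10 genes. Stress keratins held 2.73% to 6.11% in KMT2D-WT cells with glucose and 7.21% to 8.8% without. In KMT2D-KO cells they held 1.18% to 6.61% with glucose, and without glucose 8.88% in the KO1 library and 24.1% in the KO2 library of experiment 1 and 17.9% and 17.6% in the pair of experiment 2. Basal keratins held 10.1% to 14.1% in the 6 KMT2D-WT libraries and 1.82% to 9.37% in the 8 KMT2D-KO libraries, so the genotypes did not overlap in this share. A share also depends on the other classes. The basal sum itself was 87.7 to 116 RPKM in KMT2D-WT and 12.9 to 102 RPKM in KMT2D-KO cells with glucose. Without glucose it was 87.1 to 108 and 67.4 to 169 RPKM, with a higher median in KMT2D-KO cells (124 against 89.9). All 10 genes together made up 0.3% to 0.64% of the counts. These shares come from bulk RNA, in which fewer cells of a kind and less RNA per cell cannot be told apart.

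**Figure D1:**
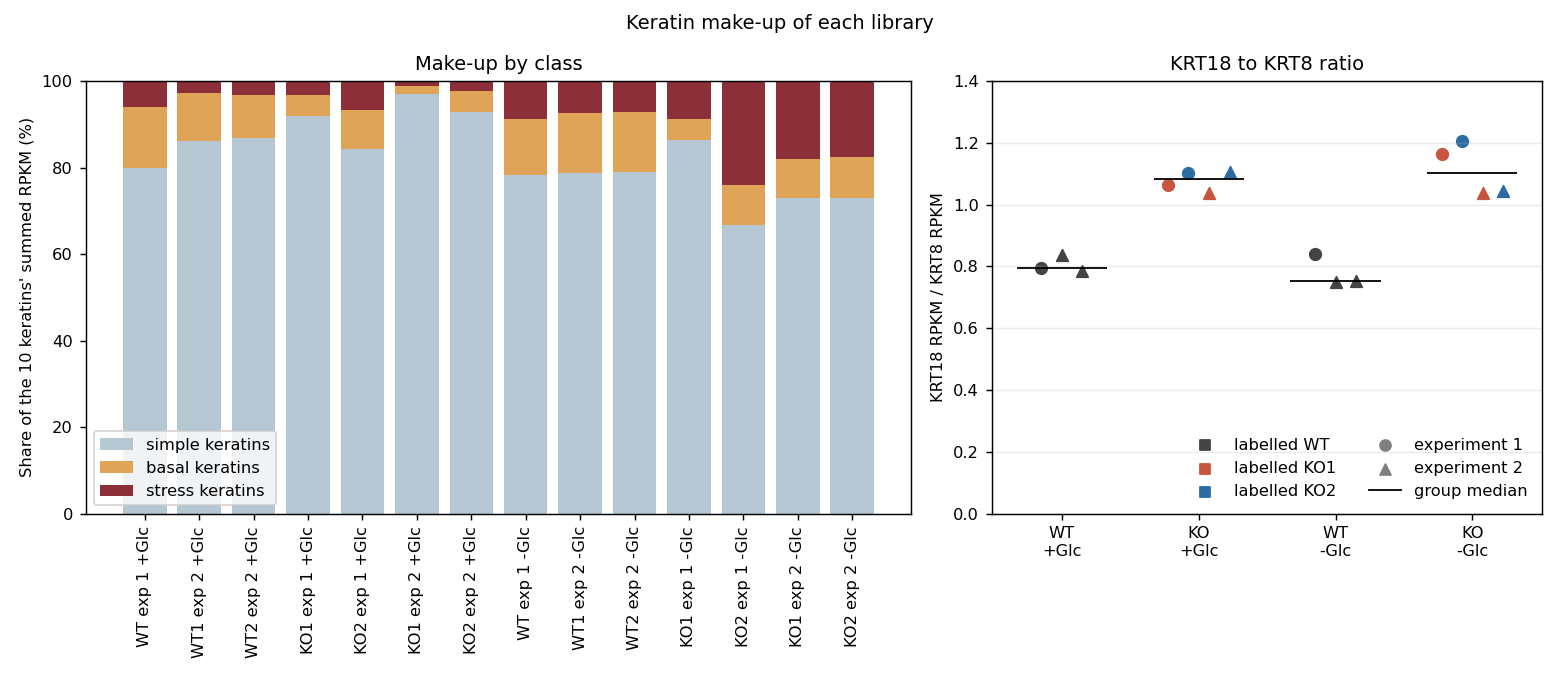
Left, stacked bars of the share (%) of the summed RPKM of the 10 keratins held by each class in each of the 14 libraries. Right, the ratio of KRT18 to KRT8 RPKM per library by genotype and glucose condition, with points for libraries and lines for group medians. Basal shares are lower in all KMT2D-KO bars, stress shares are largest in 3 of the 4 KMT2D-KO bars without glucose, and all KMT2D-KO ratios (1.04 to 1.21) lie above all KMT2D-WT ratios (0.75 to 0.84). Bars show shares only, and without glucose the summed basal RPKM of the genotypes overlaps.

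KRT5, the type II partner of KRT14, moved in opposite directions in both KMT2D-KO lines. With glucose it was at 28, 13.2 and 21.1 CPM in the KMT2D-WT libraries, at 8.78 and 1.5 CPM in KO1, and at 166 and 82.8 CPM in KO2. Every KO1 library lay below the KMT2D-WT range and every KO2 library above it. The log2 fold change was -2.63 in KO1 (standard error (SE) 0.30, adjusted p = 4.48e-06) and 2.34 in KO2 (SE 0.22, adjusted p = 6.34e-07) by edgeR's quasi-likelihood test, and KO2 exceeded KO1 by 4.97 (SE 0.31, adjusted p = 6.15e-08). Averaged over both lines the value was 1.44 (95% interval -1.14 to 4.01, adjusted p = 0.412 by edgeR), which hides both changes, and without the KO2 library of experiment 2 it was -0.68. Without glucose, KRT5 was at 22.9, 19.4 and 19.6 CPM in KMT2D-WT cells and at 15.3 (KO1, experiment 1), 225 (KO2, experiment 1), 180 and 185 CPM in KMT2D-KO cells. The KO1 library of experiment 1 was again below all KMT2D-WT libraries and the other 3 were far above. The edgeR log2 fold change of 2.86 (SE 0.79, adjusted p = 0.0207) lost its call without any 1 library other than that KO1 library (2.13 to 3.17, adjusted p = 0.0543 to 0.0779), when each close pair was summed (2.73, adjusted p = 0.155) and without the KMT2D-KO pair of experiment 2 (2.42, adjusted p = 0.378).

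KRT14, the main basal type I keratin, was lower in KMT2D-KO cells with glucose, and over both lines it was not called without. With glucose it was at 244, 222 and 184 CPM in KMT2D-WT libraries, 82.8 and 26.5 CPM in KO1, and 136 and 67.7 CPM in KO2. All 4 KMT2D-KO libraries were below all 3 KMT2D-WT libraries. By edgeR the log2 fold change was -1.74 (SE 0.34, adjusted p = 0.00627), and it stayed called with any 1 library left out (-2.13 to -1.36). It was not called with experiment dropped from the model (-1.46, adjusted p = 0.131) or in experiment 1 alone (-1.16, adjusted p = 0.103). KO1 fell by more (-2.36, SE 0.22, adjusted p = 5.84e-07) than KO2 (-1.34, SE 0.20, adjusted p = 6.97e-05), and the difference between lines passed the edgeR test (1.01, adjusted p = 0.00415) but not without the KO1 library of experiment 2 (0.53, adjusted p = 0.139) or either KO2 library (adjusted p = 0.0541 and 0.112). Without glucose KRT14 was at 229, 184 and 191 CPM in KMT2D-WT cells and at 134 (KO1, experiment 1), 253 (KO2, experiment 1), 172 and 179 CPM in KMT2D-KO cells. Those ranges overlapped, and the edgeR log2 fold change of -0.18 had a 95% interval of -0.60 to 0.25 (adjusted p = 0.447), and was -0.22 without the KMT2D-KO pair of experiment 2 (adjusted p = 0.741). The KO1 library of experiment 1 was at 0.59 times the KMT2D-WT level of its experiment. The KO2 library of experiment 1 and the pair near it were at 0.92 to 1.1 times. The ratio of KRT14 to KRT5 RPKM was 16 to 30.9 in KMT2D-WT cells with glucose, 17.3 and 32.3 in KO1, and 1.51 and 1.5 in KO2.

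KRT15 was low throughout and higher in KMT2D-KO cells without glucose. With glucose it was at 6.36, 0.99 and 5.06 CPM in KMT2D-WT cells, where 1 library of experiment 2 stood apart, and at 14.9 and 5 CPM in KO1 and 6.92 and 5.1 CPM in KO2. The ranges overlapped, with an edgeR log2 fold change of 0.76 (95% interval -0.31 to 1.83, adjusted p = 0.289). Without glucose it was at 5.16, 4.59 and 4.05 CPM in KMT2D-WT cells and at 25.6, 16.4, 12.9 and 13.4 CPM in KMT2D-KO cells. The groups did not overlap, and the edgeR log2 fold change was 1.75 (SE 0.22, adjusted p = 0.000771). It remained called with each close pair summed (1.83, adjusted p = 0.0287) and was 2.05 without the KMT2D-KO pair of experiment 2 (adjusted p = 0.0614).

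**Figure D2:**
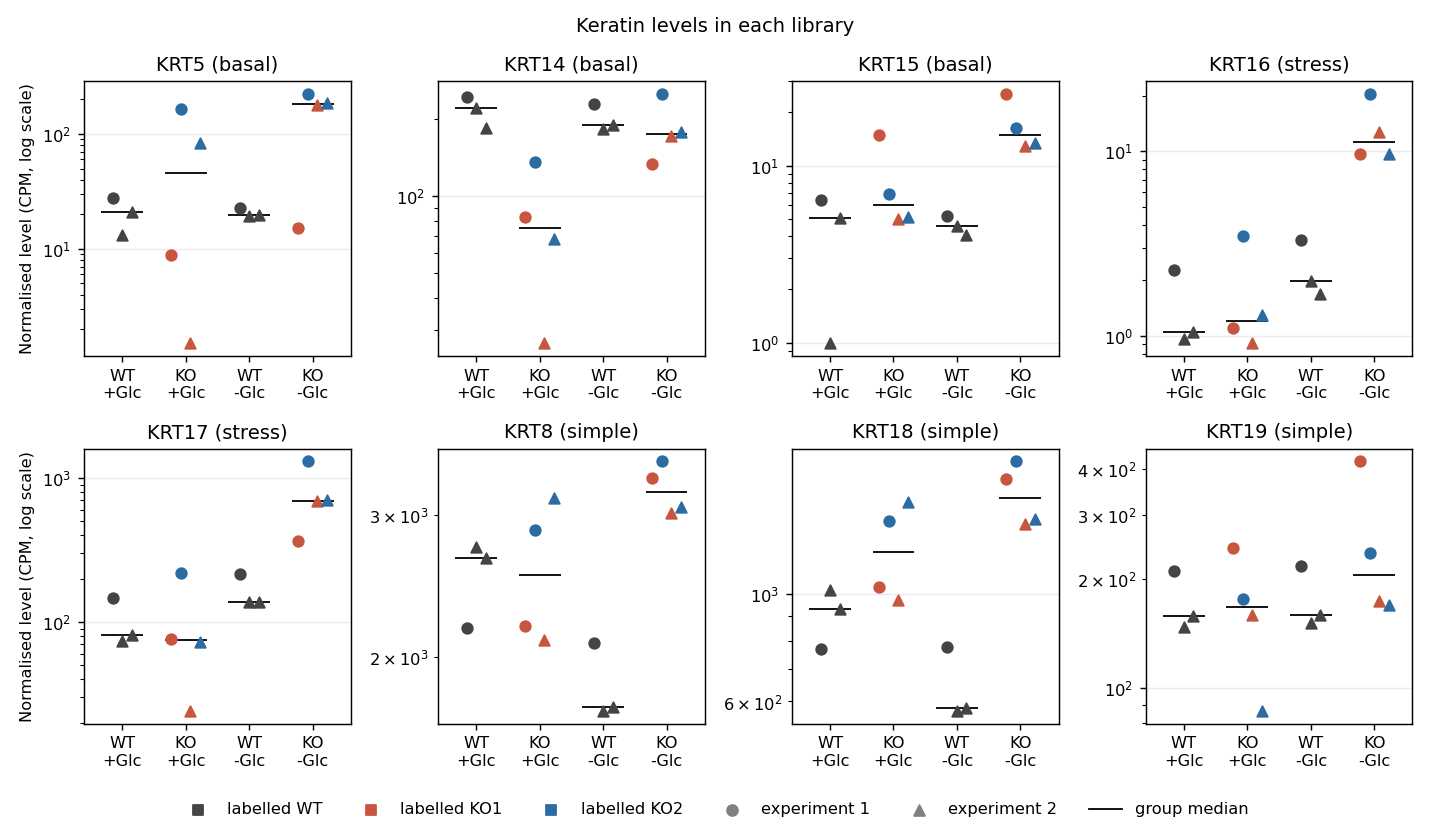
Normalised level (CPM, log axis, a separate scale per panel) of 8 keratins in each of the 14 libraries, grouped by genotype and glucose condition. Points are libraries, coloured by labelled line and shaped by experiment, and lines are group medians; KRT6A and KRT6B, with 21 counts or fewer, are left out. KRT16 and KRT17 are highest in the 4 KMT2D-KO libraries without glucose. KRT5 separates KO1 from KO2 except in experiment 2 without glucose, where the libraries labelled KO1 and KO2 are at 180 and 185 CPM.

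KRT16 and KRT17 were the 2 stress keratins with enough counts to be tested for loss of glucose in KMT2D-KO cells, and both rose. KRT17, a type I keratin of activated and hyperproliferative keratinocytes, was at 148, 74.1 and 81.2 CPM in KMT2D-WT cells with glucose, 76.5 and 24 CPM in KO1 and 220 and 73.3 CPM in KO2. Those of both genotypes overlapped (log2 fold change -0.41, 95% interval -1.38 to 0.57, adjusted p = 0.546 by edgeR), while KO1 alone was lower (-1.40, SE 0.14, adjusted p = 1.62e-06 by edgeR) and KO2 alone was at 0.17 (95% interval -0.11 to 0.46). Without glucose KRT17 was at 214, 138 and 137 CPM in KMT2D-WT cells and at 366 (KO1), 1302 (KO2), 696 and 698 CPM in KMT2D-KO cells, and the groups did not overlap. The edgeR log2 fold change between genotypes was 2.16 (SE 0.39, adjusted p = 0.00359). With each close pair summed it was 2.11 (adjusted p = 0.0632) and without the KMT2D-KO pair 1.98 (adjusted p = 0.195), so the call was lost in both settings.

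KRT16, the type I partner of KRT6, had far fewer counts. With glucose it was at 2.28, 0.96 and 1.05 CPM in KMT2D-WT cells, 1.11 and 0.91 CPM in KO1 and 3.48 and 1.29 CPM in KO2. The ranges overlapped, with a log2 fold change of 0.10 (95% interval -0.73 to 0.93, adjusted p = 0.877 by edgeR), and with its pseudogene rows added the value turned to -0.81 (adjusted p = 0.0242 by edgeR), since KRT16P6 alone was at 4.66 to 5.8 CPM in KMT2D-WT and 1.73 to 4.54 CPM in KMT2D-KO cells. Without glucose KRT16 was at 3.31, 1.98 and 1.69 CPM in KMT2D-WT cells and at 9.71 (KO1), 20.5 (KO2), 12.8 and 9.7 CPM in KMT2D-KO cells. The groups did not overlap. Between genotypes the edgeR log2 fold change was 2.41 (SE 0.28, adjusted p = 0.000603), and it was 2.36 with each close pair summed (adjusted p = 0.0268) and 2.22 without the KMT2D-KO pair (adjusted p = 0.0902). With its pseudogene rows added it was smaller, at 1.64 (adjusted p = 0.00119).

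KRT6A and KRT6B, the type II partners of KRT16, were close to the limit of detection. KRT6A had 0 to 6 counts per library with glucose, 2 to 10 in KMT2D-WT cells without glucose and 2 to 21 in KMT2D-KO cells without glucose, or 0.11 to 1.13 CPM there. The edgeR test without glucose gave 1.77 for KRT6A (SE 0.74, adjusted p = 0.0845), DESeq2 with experiment called it (1.95, adjusted p = 0.0409), and without the KMT2D-KO pair it had too few counts to be tested. KRT6B had 0 counts in all 7 libraries with glucose, which allows up to 3 counts per library or 0.04 to 0.18 CPM, and 0 to 4 counts without. Intervals and limits of this kind cover counting error only. The type I stress keratins were thus measured in a line in which their type II partners were barely detected.

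KRT8 and KRT18, the main pair of simple keratins, had the highest median RPKM of the 10 genes in every group. KRT8 was at 2172, 2738 and 2656 CPM in KMT2D-WT cells with glucose, 2182 and 2100 CPM in KO1 and 2877 and 3151 CPM in KO2. The genotypes overlapped (log2 fold change 0.07, 95% interval -0.29 to 0.42, adjusted p = 0.795 by edgeR), with KO2 above KMT2D-WT by 0.29 (SE 0.08, adjusted p = 0.0111 by edgeR, and 0.103 to 0.19 if either KO2 library or the experiment 1 KMT2D-WT library was left out). Without glucose KRT8 was at 2077, 1710 and 1732 CPM in KMT2D-WT cells and at 3339, 3498, 3017 and 3074 CPM in KMT2D-KO cells, with no overlap. The edgeR log2 fold change was 0.76 (SE 0.05, adjusted p = 6.92e-05), and it was 0.77 with each close pair summed (adjusted p = 0.0197) and 0.75 without the KMT2D-KO pair (adjusted p = 0.0537).

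KRT18, the type I partner of KRT8, was at 771, 1022 and 931 CPM in KMT2D-WT cells with glucose, 1035 and 974 CPM in KO1 and 1415 and 1551 CPM in KO2. KO1 overlapped the upper end of the KMT2D-WT range and KO2 was above it. The edgeR log2 fold change was 0.49 over both lines (SE 0.18, adjusted p = 0.0744) and 0.74 in KO2 (SE 0.09, adjusted p = 8.44e-06). Without glucose KRT18 was at 777, 573 and 580 CPM in KMT2D-WT cells and at 1734, 1882, 1396 and 1431 CPM in KMT2D-KO cells, with no overlap. There the edgeR log2 fold change was 1.24 (SE 0.05, adjusted p = 3.11e-05), and it was 1.25 with each close pair summed (adjusted p = 0.0152) and 1.25 without the KMT2D-KO pair (adjusted p = 0.0509).

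The balance of this pair did not overlap between the genotypes in either glucose condition. The ratio of KRT18 to KRT8 RPKM was 0.8, 0.84 and 0.79 in KMT2D-WT cells with glucose and 0.84, 0.75 and 0.75 without. In KMT2D-KO cells it was 1.06, 1.1, 1.04 and 1.1 with glucose and 1.16, 1.21, 1.04 and 1.04 without. Each of the 8 KMT2D-KO libraries was above each of the 6 KMT2D-WT libraries. The order held with the pseudogene rows of both genes added, at 0.78 to 0.86 in KMT2D-WT and 1.03 to 1.24 in KMT2D-KO cells. This ratio was picked after its values were seen, and it is given with no test.

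KRT19 passed the test over both lines in neither glucose condition. With glucose it was at 209, 147 and 158 CPM in KMT2D-WT cells, 243 and 159 CPM in KO1 and 175 and 86.2 CPM in KO2. The edgeR log2 fold change was -0.18 over both lines (95% interval -0.65 to 0.28, adjusted p = 0.574) and -0.56 in KO2 (SE 0.11, adjusted p = 0.000866), the latter at -0.27 without the KO2 library of experiment 2 (adjusted p = 0.134). Without glucose it was at 217, 151 and 159 CPM in KMT2D-WT cells and at 420, 236, 174 and 169 CPM in KMT2D-KO cells. The ranges overlapped and the edgeR log2 fold change was 0.31 (95% interval -0.23 to 0.85, adjusted p = 0.297), or 0.62 without the KMT2D-KO pair (adjusted p = 0.339).

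**Figure D3:**
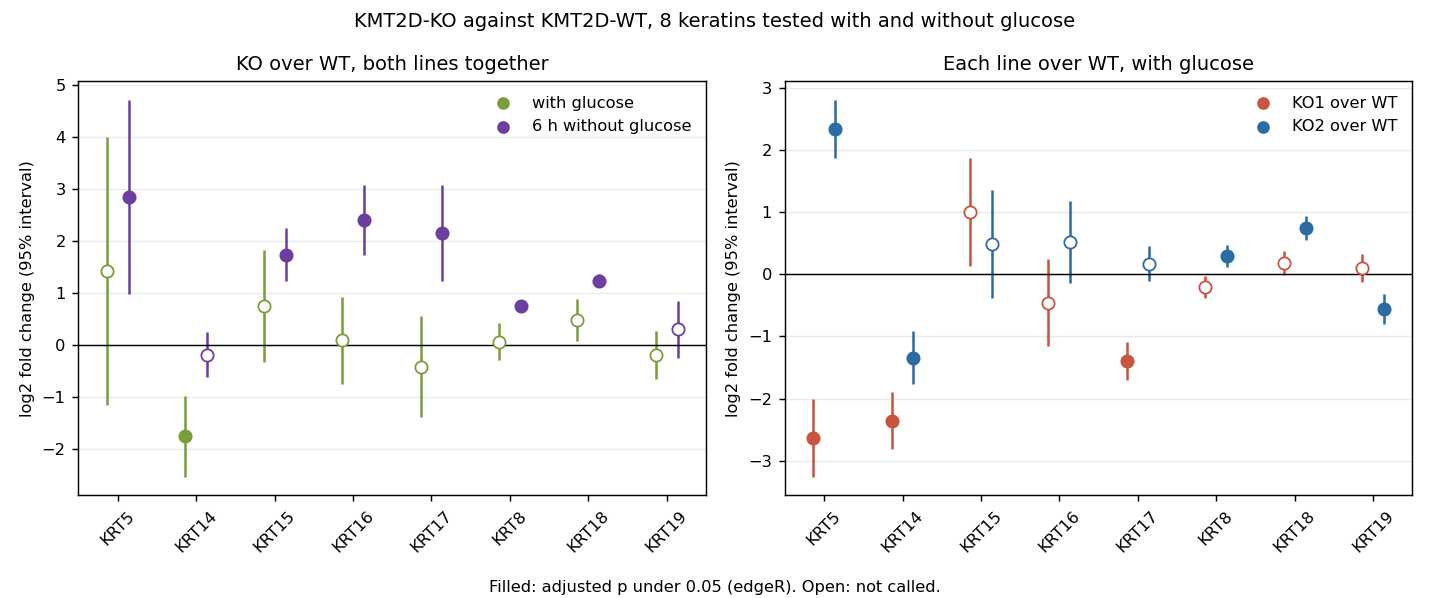
Log2 fold changes of 8 keratins with their 95% intervals from edgeR, KMT2D-KO over KMT2D-WT for both lines together with and without glucose (left) and for each line with glucose (right). Filled points have an adjusted p under 0.05. KRT14 is the one filled point with glucose on the left, 6 points are filled without glucose, and KRT5 lies at -2.63 in KO1 and 2.34 in KO2 on the right.

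Counted over the members, 8 of the 10 had enough counts to be tested with glucose, where 0 were higher and 1, KRT14, was lower in KMT2D-KO cells, against 13% and 11.7% of all 20423 genes tested. At an unadjusted p under 0.05, edgeR gave 2 of the 8, and DESeq2 called 2 by adjusted p. In KO1 alone, 0 were higher and 3 lower (17% and 16.5% of all genes), namely KRT5, KRT14 and KRT17. In KO2 alone, 3 were higher (KRT5, KRT8 and KRT18) and 2 lower (KRT14 and KRT19), against 18.8% and 18% of all genes. The lines themselves differed at 6 of the 8, with KRT5, KRT14, KRT17, KRT8 and KRT18 higher in KO2 and KRT19 lower, against 7.37% and 7.89% of all genes. Of these 6, KRT5 and KRT17 stayed called with any 1 library left out. KRT8 and KRT18 were not called without the KO2 library of experiment 1 (0.43 and 0.50, adjusted p = 0.0831 and 0.0603 by edgeR) or the KO1 library of experiment 2 (0.36 and 0.40, adjusted p = 0.101 and 0.076), nor KRT19 without the KO2 library of experiment 2 (-0.40, adjusted p = 0.0852). These line comparisons share their KMT2D-WT libraries.

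Without glucose 9 of the 10 were tested, and 6 were higher and 0 lower, against 25.9% and 24.9% of all 16782 genes. The 6 were KRT5 and KRT15 of the basal, KRT16 and KRT17 of the stress, and KRT8 and KRT18 of the simple class, and the median log2 fold change of the 9 was 1.75, beside 0.003 over all genes tested. KRT6A, not called, was among the 9 only through its level in KMT2D-KO cells (up to 1.13 CPM, against 0.35 CPM in KMT2D-WT cells). Its part in that median is therefore no evidence of a change. With each close pair summed, 4 of the 6 were called, and without the KMT2D-KO pair of experiment 2 edgeR called 0 of 8 members and 0 genes in all, with 4 members and 5135 genes at an unadjusted p under 0.05. All members kept their direction in both settings. With library size in place of TMM as the scale, the median of all genes moved to -0.25 for this comparison, -0.23 for the change in KMT2D-KO effect with glucose condition and -0.20 for the response of KMT2D-KO cells to loss of glucose. The split of calls over all genes moved from 4342 higher and 4179 lower to 2726 and 6295 between genotypes without glucose, and from 2240 and 2573 to 1005 and 3893 for loss of glucose in KMT2D-KO cells. Changes are therefore relative to the bulk of genes, and no member changed direction with the scale.

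The KMT2D-KO effect was more positive without glucose than with it for 5 of 9 members tested and more negative for 0, against 4.73% and 6.54% of all 18678 genes. The mix of lines differed between the conditions in this fit, as given above. With glucose, KO2 exceeded KO1 on the log2 scale for KRT14 (1.01), KRT17 (1.57), KRT8 (0.49), KRT18 (0.56) and KRT16 (0.98, not called). The part of the line mix in these differences was not tested. KRT6A, not called, was again among the 9 only through its level in KMT2D-KO cells without glucose. With library size as the scale, 2 members (KRT16 and KRT17) were called, and the split over all genes moved from 884 higher and 1221 lower to 264 and 2402. The difference in log2 fold change was 2.34 for KRT16 (SE 0.48, adjusted p = 0.0106 by edgeR), 2.60 for KRT17 (SE 0.65, adjusted p = 0.0249), 1.59 for KRT14 (SE 0.45, adjusted p = 0.04), 0.72 for KRT8 (SE 0.18, adjusted p = 0.0271) and 0.78 for KRT18 (SE 0.21, adjusted p = 0.0325). KRT16 alone remained called with any 1 library left out (2.17 to 2.63). For KRT17, KRT8 and KRT18 the call was lost without any 1 of the 6 KMT2D-WT libraries or either KMT2D-KO library of the close pair (adjusted p up to 0.0903). For KRT14 the same held, except that the KO1 library of experiment 1 with glucose took the place of the KMT2D-WT library of experiment 1 with glucose (adjusted p up to 0.103). With each close pair summed edgeR called 0 of the 9, and without the KMT2D-KO pair 0 of 8, with 5 at an unadjusted p under 0.05 in each. In both settings the 5 differences kept their sign, and those of KRT16 and KRT17 were 2.28 and 2.54, and 2.19 and 2.46.

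For loss of glucose in KMT2D-WT cells, edgeR called 1 of 8 members as higher and 0 as lower, against 7.15% and 7.58% of all 17227 genes, a share near that of all genes. At an unadjusted p under 0.05 edgeR gave 4 of the 8, and DESeq2 with experiment called 4. The 1 was KRT17 (log2 fold change 0.74, SE 0.08, adjusted p = 0.0168 by edgeR), and its call was lost without any 1 of the 4 libraries of experiment 2 (adjusted p up to 0.162). KRT16 was at 0.77 (SE 0.20, adjusted p = 0.0561) and turned to -0.44 with its pseudogene rows added (adjusted p = 0.14), KRT8 at -0.45 (adjusted p = 0.0748) and KRT18 at -0.50 (adjusted p = 0.0949), all by edgeR. In experiment 1, where both conditions were counted alike, KRT8 and KRT18 without glucose were at 0.96 and 1.01 times their level with glucose, against 0.64 and 0.59 times in experiment 2. Without either library of experiment 1 both passed the edgeR test (-0.64 for KRT8 and -0.75 for KRT18, highest adjusted p = 0.000103).

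In KMT2D-KO cells 4 of 8 members rose and 0 fell, against 14% and 16% of all 16057 genes. With the pair of experiment 2, the mix of lines differed between the conditions here too. KRT17 rose by 3.15 (SE 0.62, adjusted p = 0.0102) and KRT16 by 3.01 (SE 0.43, adjusted p = 0.00376) on the log2 scale, and both remained called with any 1 library left out and with each close pair summed (edgeR, adjusted p = 0.0317 and 0.0169). With its pseudogene rows added the rise of KRT16 was 1.97 (adjusted p = 0.00268). KRT14 (1.34, adjusted p = 0.0366) and KRT15 (1.14, adjusted p = 0.0188) did not remain called with each close pair summed (adjusted p = 0.0822 and 0.0556). KRT15 was also not called without any 1 library of experiment 2 (adjusted p up to 0.0618), nor KRT14 without any 1 of these or of the KO1 library with glucose and the KO2 library without glucose of experiment 1 (adjusted p up to 0.0924). Without the KMT2D-KO pair of experiment 2 edgeR called 0 of the 8, with 2 at an unadjusted p under 0.05, and KRT17 and KRT16 were at 2.46 and 2.67 (adjusted p = 0.176 and 0.106). In experiment 1, without glucose KRT17 was at 1.45 times its level with glucose in KMT2D-WT cells, 4.78 times in KO1 and 5.93 times in KO2. KRT16 was at 1.45, 8.79 and 5.89 times. For the other 6 members these ratios were 0.81 to 1.04 in KMT2D-WT cells and 1.22 to 2.37 in KO1 and KO2. The share of all genes with higher ratios in both lines was not counted. All these ratios come from single libraries with no replicate check. In a fit of experiment 1 with line as a block, KRT17 was the 1 member called for the difference between genotypes, and this fit was chosen after the data had been seen.

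**Figure D4:**
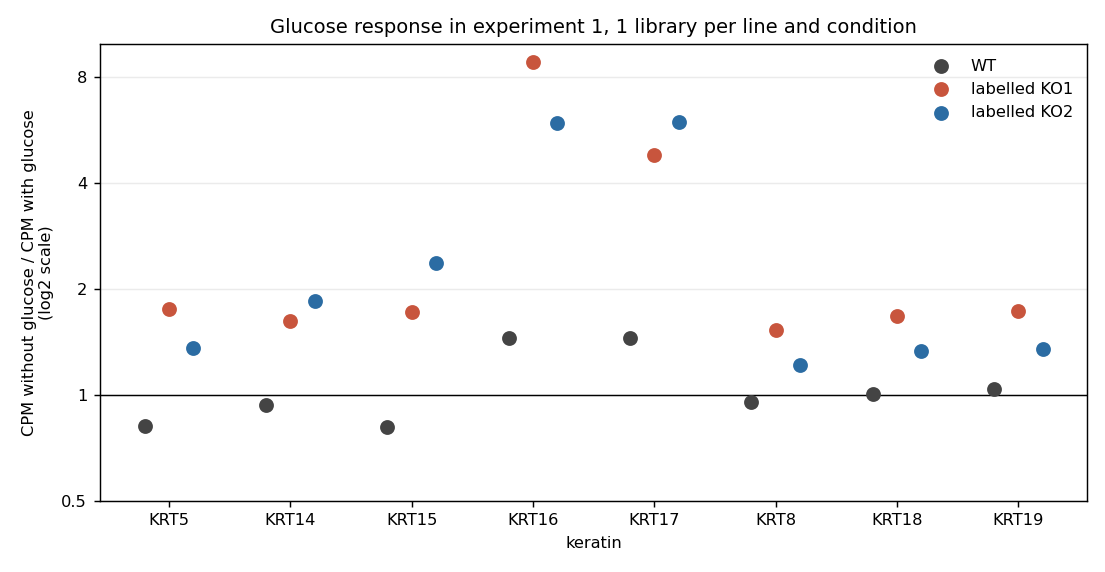
Ratio of CPM without glucose to CPM with glucose (log2 axis) for 8 keratins in experiment 1, with 1 library per line and condition and no error. The line at 1 marks no change. KRT16 and KRT17 reach 4.78 to 8.79 in both KMT2D-KO lines and 1.45 in KMT2D-WT cells.

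Genes around the keratins were counted from lists written for this purpose, with earlier results of these data known. Of all genes, 13% were higher and 11.7% lower with glucose, and 25.9% and 24.9% without. Without the KMT2D-KO pair of experiment 2, edgeR called 0 genes of any list between genotypes without glucose. Of 45 other keratins, 10 were tested with glucose and 8 without, and 4 were higher and 0 lower in KMT2D-KO cells in each condition. Without the KMT2D-KO pair, 3 of 7 had an unadjusted p under 0.05. Among them KRT7, the simple type II keratin, was at 3.73 to 8.47 CPM in KMT2D-WT cells with glucose and at 9.9 to 172 CPM in KMT2D-KO cells. Its edgeR log2 fold change was 3.12 with glucose (adjusted p = 0.017), 5.00 without (adjusted p = 0.00135) and 4.57 without the KMT2D-KO pair (adjusted p = 0.13). With glucose it was larger in KO2 than in KO1 by 2.66 (adjusted p = 5.35e-08 by edgeR), as for KRT5. KRT80, a type II epithelial keratin, was at 0.72 with glucose (adjusted p = 0.0132), 1.82 without (adjusted p = 0.000194) and 1.63 without the pair (adjusted p = 0.0701), by edgeR. KRT34, a type I hair keratin, was at 1.46, 1.55 and 1.81 (adjusted p = 0.0466, 0.00133 and 0.079 by edgeR). Of other intermediate filament genes, 1 was higher and 4 lower of 7 tested with glucose, and 1 higher and 2 lower of 6 tested without. The higher one was VIM, the mesenchymal vimentin, at 1.67 with glucose, 1.53 without and 2.01 without the pair (adjusted p = 0.00989, 0.0139 and 0.14 by edgeR). The lower ones without glucose were LMNB1 (-1.76, adjusted p = 0.000432 by edgeR) and SYNM (-1.70, adjusted p = 8.58e-05). With each close pair summed, edgeR still called LMNB1 and SYNM (adjusted p = 0.0264 and 0.0185) but not VIM (adjusted p = 0.0928). Without the pair LMNB1 and SYNM were at -1.51 and -1.64 (adjusted p = 0.0686 and 0.0509).

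Of 13 partners of keratin filaments, 1 was higher and 6 lower in KMT2D-KO cells in each glucose condition, with medians of -0.34 and -0.29 on the log2 scale. Without the KMT2D-KO pair the median was -0.46, with 5 at an unadjusted p under 0.05. PPL, the plakin periplakin that ties keratins to the cell border, was at -1.39 with glucose, -0.95 without and -1.20 without the pair (adjusted p = 0.000123, 0.0268 and 0.229 by edgeR). DSP, the desmosomal keratin anchor desmoplakin, was lower with glucose (-0.51, adjusted p = 0.0161 by edgeR), at -0.28 without (adjusted p = 0.453) and at -0.46 without the pair (adjusted p = 0.644). Of 17 transcription factors known to act on keratin genes, 3 were higher and 2 lower with glucose, near the share of all genes, and 12 higher and 0 lower without, with medians of 0.18 and 0.62. With each close pair summed 4 were called as higher, and without the KMT2D-KO pair 6 had an unadjusted p under 0.05, with a median of 0.49. TP63, the master factor of basal squamous cells, was at 0.09 with glucose, 0.70 without and 0.49 without the pair (adjusted p = 0.682, 0.0362 and 0.526 by edgeR). KLF5, an epithelial factor, was at -0.23, 0.97 and 0.79 (adjusted p = 0.203, 0.0182 and 0.387 by edgeR).

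Across the 14 libraries, after the mean of each experiment and glucose condition was taken off, log2 CPM of KRT8 and KRT18 had a Pearson r of 0.95, KRT17 and KRT8 of 0.90, KRT5 and KRT17 of 0.89, KRT5 and KRT14 of 0.37 and KRT5 and KRT19 of -0.53. These are descriptions, since libraries share lines, experiments and the close pairs. By the same measure over 9489 genes with a mean of at least 10 CPM, the genes most like KRT8 were NDFIP2, MAGED1 and ADM (r of 0.98 to 0.99), those most like KRT17 were DOLPP1, CTDSP1 and DNAJB6 (0.97), and those most like KRT14 were MYO19, ANKRD1 and FBLN5 (0.95 to 0.97). In the RefSeq promoter windows (GRCh38.p14) at hand for KRT5 and KRT8, the 250 bases before the start were searched on both strands. The KRT8 window (chr12:52926470-52926719) lies inside the span of that gene given above, so it does not cover the outermost annotated start. The KRT5 window (chr12:52520395-52520644) lies in part inside the span of KRT5. Whether these windows precede the starts used in these cells was not tested. The TATA box TATAAA, held by 10.7% of 35116 such windows, was found in neither. Only exact letters were matched, so the GATAAA in the KRT5 window was not counted, and a variant TATA box is not excluded. The AP-1 motif TGANTCA, held by 6.57% of windows, was also found in neither. The same was true of the GC box GGGCGG, held by 42.6%.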

How the data were processed

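RNA was measured in 14 libraries, grouped by genotype, glucose condition and experiment as labelled. The authors mapped reads to GRCh38 with HISAT2 and counted them per gene name with featureCounts 2.0.3 on the Ensembl 102 annotation without strand, and deposited whole-number counts that are not normalised. Both mates were counted in 4 libraries, and the other 10 were single-end.

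From these counts, genes were filtered (filterByExpr, minimum count 10), TMM-normalised and tested with edgeR 4.0.16 in R 4.3.3 (quasi-likelihood test, Benjamini-Hochberg adjusted p under 0.05 over all genes tested). Each glucose condition was fitted with its 7 libraries and experiment as covariate, line as a factor of 3 levels for single lines, and all 14 libraries for the difference between conditions. The study's methods name DESeq2 and no covariate. Experiment numbers come from the labels, and differences between experiments correlated between the genotypes over 9493 genes (0.97 with glucose and 0.92 without). CPM values use TMM over all libraries, and a pseudocount of 0.5 was used for log2 CPM in correlations only. p-values cover only the spread between these libraries, which may in part be technical, since labels do not say whether they came from separate cultures.

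Named genes were all members, KMT2D, and of each list at most 5 genes called between genotypes, by mean CPM (at least 10, other keratins at least 1). KRT6A and KRT6B were given by count. The members and lists were chosen with earlier results of these data known. The fits were repeated with DESeq2 1.42.0 (experiment included or not), in edgeR with experiment dropped, scaled by RLE or library size, with no filter, with summed KRT6 and pseudogene rows, halved counts of libraries with both mates, summed close pairs, single experiments and each library left out. Once the data had been looked at, 2 more fits were added, namely experiment 1 with line as a block and all libraries but both KMT2D-KO libraries of experiment 2 without glucose. Simulated counts in which 200 genes were changed by known folds were used to check the edgeR fits.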

Additional observations from a re-analysis of the deposited data

Results flagged for a closer look

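In KMT2D-KO cells without glucose, the KO1 library of experiment 1 stood apart from the other 3 for KRT5 (15.3 CPM), with a gap to the nearest of 0.917 of the group's range on the log2 scale. Chance sets 1 library apart by this measure in about 1 in 20 groups of independent, like libraries, and 16 groups of 4 were examined. The other 3 libraries here were the KO2 library of experiment 1 and the close pair that lay near it. That rate therefore does not apply to this group. The KMT2D-KO effect differed between the glucose conditions by edgeR's interaction test for KRT8 (0.72), KRT18 (0.78), KRT14 (1.59), KRT16 (2.34) and KRT17 (2.6), as log2 differences of the effect without glucose minus that with glucose. With each close pair of experiment 2 summed, their adjusted p by edgeR was 0.15, 0.162, 0.171, 0.0785 and 0.133. The mix of lines also differed between the conditions.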

How the results depend on the processing

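Over the log2 fold changes of the members, the settings other than leaving out a library kept direction and side of the threshold for 483 values, while 69 lost their call, 30 gained one and 5 changed direction. With single libraries left out the numbers were 429, 64, 14 and 14. The causes of these changes were not tested. Counts of 0 members below came with 1 to 5 members at an unadjusted p under 0.05 by edgeR, and counts of 0 genes with 2134 to 5135 genes.

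With no replicate block, that is without experiment in the model, edgeR called 971 genes and 0 members between genotypes with glucose and 3659 genes without. It called 70 genes and 0 members for the difference between conditions, 2 genes and 0 members for loss of glucose in KMT2D-WT cells, and 1465 genes and 2 members in KMT2D-KO cells. For KO1 and KO2 against KMT2D-WT and KO2 against KO1, 526, 646 and 10 genes and 0 members each were called.
With no filter, members called were 5 between genotypes with glucose, 8 for the difference between conditions, 3 (and 5560 genes) for loss of glucose in KMT2D-WT and 8 in KMT2D-KO cells, and 5 in KO1.
DESeq2 with experiment called 2 members with glucose, 3473 genes for the difference between conditions, and 6213 genes and 4 members for loss of glucose in KMT2D-WT cells. DESeq2 with no covariate called 2572 genes between genotypes with glucose and 4821 without.
Library-size scaling left 2 members called for the difference between conditions.
Summing pseudogene rows gave 2 members with glucose, and turned KRT16 to -0.81 there, to -0.72 in KO2 and to -0.44 for loss of glucose in KMT2D-WT cells.
Experiment 1 alone called 304 genes and 0 members between genotypes with glucose, 0 genes and 0 members without, and 0 genes and 0 members for loss of glucose in KMT2D-KO cells, and it put KRT17 with glucose at 0.0024. Experiment 2 alone called 2336 and 12888 genes between genotypes with and without glucose, and put KRT8 with glucose at -0.052.
With close pairs summed, 2785 genes were called between genotypes without glucose, 258 genes and 0 members for the difference, 1 gene and 0 members for loss of glucose in KMT2D-WT cells and 2282 genes and 2 members in KMT2D-KO cells.
Without the KMT2D-KO pair, a setting added after seeing the data, 0 genes and 0 members were called between genotypes without glucose, 58 genes and 0 members for the difference and 83 genes and 0 members for loss of glucose in KMT2D-KO cells.
Experiment 1 with line as a block, added likewise, gave 31 genes and 1 member for the difference and 1245 genes for loss of glucose in KMT2D-KO cells.

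Leaving out 1 library at a time gave 2142 to 5048 genes and 1 to 2 members between genotypes with glucose, 6031 to 12448 and 5 to 7 without, 788 to 4230 and 1 to 5 for the difference, 0 to 8747 and 0 to 4 for loss of glucose in KMT2D-WT cells, 1991 to 6553 and 2 to 5 in KMT2D-KO cells, 3817 to 6997 and 3 to 4 in KO1, 4101 to 7571 and 3 to 6 in KO2, and 905 to 3974 and 3 to 6 for KO2 against KO1. The members whose direction changed, with their range over these fits, were, with glucose, KRT8 (-0.060 to 0.23, also -0.054 and -0.033), KRT16 (-0.22 to 0.29, also -0.041), KRT5 (-0.68 to 1.99) and KRT19 (-0.40 to 0.038), in KO1 KRT19 (-0.051 to 0.17), and in KO2 KRT17 (-0.11 to 0.39, also -0.023) and KRT15 (-0.0076 to 1.22). For loss of glucose in KMT2D-WT cells they were KRT5 (-0.18 to 0.20, also -0.0039) and KRT15 (-0.25 to 1.02).

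KRT6A and KRT6B had few counts and share 32% and 44.3% of their 50-base stretches with other keratin rows, mostly KRT6C. How many reads were lost to these stretches was not tested. Values of KRT16 depend on how its pseudogene rows are treated, and all results without glucose on the close pairs, which leave few independent libraries.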
